A study of Mus musculus with 8 samples.

Results

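The resting transcriptome of group 2 innate lymphoid cells (ILC2s) was described from the 4 libraries of mice on a normal diet. The cells were sorted from epididymal visceral adipose tissue of male wild-type C57BL/6 mice, 14 weeks old, that had eaten the normal diet for 8 weeks from 6 weeks of age. The series holds 8 libraries, and the other 4 come from mice on a high-fat diet and are not compared here. All 4 libraries share the same genotype, strain, sex, age and tissue, and the labels do not say whether each came from its own animal or from a pool. The spread between them may therefore be technical. They are called N1 to N4. The genes described are the protein-coding genes of the table with no value below 0 in any of these 4 libraries, which gave 19551 of 20706 protein-coding genes and of 39527 genes in all. No gene was chosen by its level.

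ILC2s are lymphocytes without antigen receptors that live in tissues and answer alarm signals released by other cells. Interleukin-33, read through the receptor ST2 (gene Il1rl1), is the best known of these signals in fat, and the transcription factor GATA3 sets up and keeps the lineage. In visceral fat ILC2s are known for interleukin-5, which keeps eosinophils in the tissue, and for amphiregulin, a growth factor of the EGF family. Values are FPKM, that is fragments per kilobase of gene scaled to the size of the library, so levels of different genes can be compared within the limits of the gene lengths used.

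Depth and the number of genes detected were alike in the 4 libraries. Whole reads could be recovered from the FPKM values, and they came to 10582025, 12858056, 11632186 and 13109026 in N1 to N4. At 1 FPKM or more there were 10467, 9994, 10557 and 10319 genes. All 4 libraries reached 1 FPKM for 9434 genes, 48.3% of the 19551, and at least 1 library did for 11332. The median gene of all 19551 had a mean of 1.34 FPKM, and 1370 genes were listed at 0 in every library. Of these 1370, 328 had a value below 0 in a high-fat library. They are counted among the 19551 because they were at 0 in N1 to N4. A mean of 100 FPKM or more was reached by 976 genes (4.99%), and of 1000 or more by 87. The 10 most abundant genes held 10.6% ± 0.198 of the summed FPKM, the top 40 held 23.4% ± 0.425 and the top 100 held 35.8% ± 0.0733 (SD, n = 4). N2 stood apart in scale: its summed FPKM was 661420, against 568510 to 609320 in the others, and it had the highest value for 50.8% of the 5478 genes at a mean of 10 FPKM or more. Its recovered reads were 1.16 times the library size that its FPKM scale implies, against 0.978 to 1.05 times in the others. With each library rescaled to the same sum, N2 was highest for 29.97% of those genes.

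The markers of the labelled cell type were present in all 4 libraries at high levels. Gata3 (chromosome 2, 9857078 to 9890034 of mm10, minus strand) stood at 904, 1044, 835 and 1145 FPKM in N1 to N4, a mean of 982 ± 139 (SD, n = 4), the 89th highest of all genes. Klrg1, an inhibitory receptor that marks mature ILC2s, stood at 814, 722, 832 and 900 FPKM. Il5 (chromosome 11, 53720794 to 53725106, plus strand) stood at 733, 916, 762 and 711 FPKM. Their coefficients of variation (CV, SD over mean) were 0.141, 0.0897 and 0.119. Areg, which encodes amphiregulin, stood at 788, 539, 420 and 655 FPKM (CV 0.262). The deposited values carry a factor of 10 recycled values, from 0.863 to 1.18, that differs between genes and libraries. With it divided out the CV of Il5 was 0.188 and that of Areg 0.138, so the order of the pair turned, while Gata3 and Klrg1 had 0.101 and 0.0657. Il1rl1 was the lowest of the 5 at 317, 383, 298 and 425 FPKM. Its mean of 356 ± 59.0 FPKM ranked 260th. The sum of the 5 markers was 3555, 3604, 3147 and 3835 FPKM. Of these markers Gata3, Il1rl1 and Areg are also known from regulatory T cells, and Il1rl1 from mast cells.

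**Figure D1:**
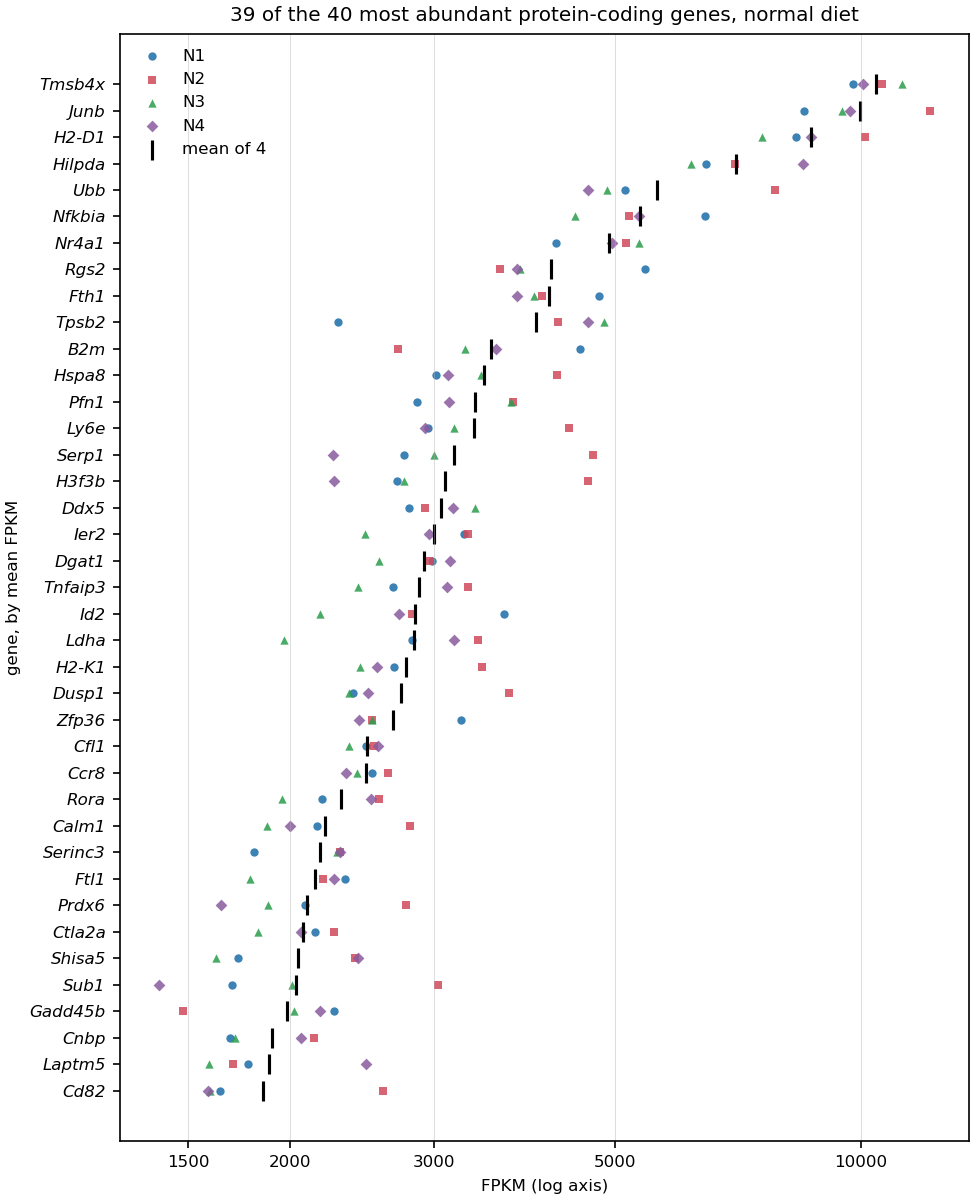
FPKM (log axis) of 39 of the 40 most abundant protein-coding genes in each of N1 to N4, with the mean of the 4 libraries as a bar, ordered by mean (1 gene is not shown). Ranges of neighbouring genes overlap, and Tpsb2 is the gene whose N1 value lies far to the left of the rest.

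The most abundant transcripts came from a few functions: the actin cortex, class I antigen presentation, rapid response genes, and lipid and iron storage. Tmsb4x, whose product holds actin monomers, was the highest in mean at 9787, 10627, 11245 and 10058 FPKM, and Junb, a subunit of the AP-1 transcription factor, came next at 8525, 12160, 9485 and 9692. Which of the pair was higher differed between libraries, and as deposited Junb was above Tmsb4x in N2 alone. By recovered reads per base of implied length, Junb was above in N4 too (128680 reads over 1036 bases against 81267 over 658). H2-D1, a classical class I heavy chain, was the third with 8341, 10113, 7575 and 8701 FPKM. As deposited it held the third place in each of the 4 libraries. By recovered reads per base H2-D1 was above Tmsb4x in N2 (158944 reads over 1418.5 bases against 71982 over 658). Hilpda was the fourth in mean, with 6457, 7013, 6194 and 8497 FPKM, and encodes a small lipid droplet protein that is induced by hypoxia and by fatty acids and inhibits triglyceride lipolysis.

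Ranks among the 40 were only loosely fixed. Every one of the 39 pairs of neighbours in rank overlapped in range over the 4 libraries. An overlap of ranges does not mean that the order changed within a library. H2-D1, for example, was above Hilpda in each of the 4. Of the 40 genes 32 were within the top 40 of each library, and the lowest place that any of them took in a library was 61. The CV ran from 0.0356 for Cfl1, which severs actin filaments, to 0.353 for Sub1, a transcription coactivator, and 7 of the 40 were below 0.1. Cfl1 stood at 2477, 2533, 2363 and 2564 FPKM. Sub1 stood at 1697, 3038, 2009 and 1382 FPKM, with N2 the highest. Serp1, which protects membrane proteins in the endoplasmic reticulum, and H3f3b, a gene for the histone variant H3.3, had the same shape. Serp1 was at 4699 FPKM in N2 and 2255 to 3004 elsewhere, and H3f3b at 4639 in N2 and 2264 to 2757 elsewhere. With the recycled factor divided out the CVs of Sub1, Serp1 and H3f3b fell from 0.353, 0.334 and 0.341 to 0.216, 0.195 and 0.203. Tpsb2 was then the most variable of the 40 (0.334) and Ftl1 the steadiest (0.0382), with Cfl1 next at 0.0448.

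Class I antigen presentation was carried by H2-D1, B2m and H2-K1. B2m, the light chain shared by all class I molecules, stood at 4530, 2714, 3277 and 3570 FPKM, and H2-K1 at 2681, 3434, 2438 and 2555. As deposited, the 2 genes moved in opposite directions between N1 and N2. Recovered reads of B2m fell from 30122 to 19748. Those of H2-K1 rose from 40698 to 46124, while the library totals rose from 10582025 to 12858056. As a share of these totals both genes were lower in N2 than in N1, so the opposite directions hold only as deposited. The class I heavy chains are close copies of each other, so reads may have been split between them. Ubb, a polyubiquitin gene, whose reads may be shared with near-identical sequences, was at 5140, 7842, 4882 and 4631 FPKM. Of the 14 genes listed for class I presentation and ubiquitin, 12 had no value below 0, all of these reached 1 FPKM in every library, and their median was 713 FPKM.

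Genes of the rapid response to stimulation made up much of the top of the ranking. Of 35 immediate early genes, which cells transcribe within minutes of a signal and many of which also rise when tissue is dissociated, 34 reached 1 FPKM in all 4 libraries and their median was 425 FPKM. Together they held 7.91% ± 0.348 of the summed FPKM. Nfkbia, which encodes the inhibitor IkB-alpha, stood at 6453, 5199, 4464 and 5345 FPKM. Nr4a1, an orphan nuclear receptor induced by antigen receptor and cytokine signals, stood at 4231, 5152, 5351 and 4954 FPKM. Rgs2, which shortens G protein signals, was at 5442 FPKM in N1 and 3620 to 3824 in the other libraries. Also in the top 40 were Ier2 (mean 3000), Tnfaip3 (2878), which encodes the ubiquitin-editing inhibitor A20, Dusp1 (2736), a phosphatase of MAP kinases, Zfp36 (2677), which destabilises cytokine mRNAs, and Gadd45b (1985). The part that cell isolation plays in these levels was not tested.

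Further genes in the top 40 serve iron storage, chaperoning, metabolism and signalling. Fth1 and Ftl1, the heavy and light chains of ferritin, had means of 4154 ± 429 and 2145 ± 246 FPKM. Both have many processed pseudogenes, as does Tmsb4x, so their counts are uncertain. Hspa8, the constitutive chaperone Hsc70, had 3455 ± 557 FPKM and Ldha, lactate dehydrogenase A, had 2839 ± 631. Dgat1, which makes triglyceride by the last acylation of diacylglycerol, was steady at 2987, 2960, 2574 and 3141 FPKM. Among genes tied to lymphocyte identity, the top 40 held Id2 (2842 ± 611), an inhibitor of E proteins needed by all innate lymphoid cells, Rora (2306 ± 289), a nuclear receptor needed for ILC2 development, and Ccr8 (2480 ± 126), a chemokine receptor. Ccr8 stood at 2521, 2635, 2417 and 2345 FPKM, a CV of 0.0509 as deposited and of 0.144 with the recycled factor divided out. Tpsb2, a mast cell tryptase, was the tenth and is described with the other mast cell genes.

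The FPKM of a gene depends on the length it was divided by. The length implied by the values was shorter than the merged exons of the gene in GENCODE M21 for most genes, with a median ratio of 0.541 over genes at a mean of 1 FPKM or more and 0.476 over the top 40. Rora was divided by 1648 bases where its merged exons span 13071. With merged exons as the length, Rora fell from the 29th to the 165th place, Ddx5 from 17 to 119 and Rgs2 from 8 to 45, and 27 of the 40 genes remained among the top 40. Gata3, Klrg1 and Il5 took the places 56, 48 and 49 on that scale. By reads with no division by length 26 of the 40 remained. Tmsb4x, Junb, H2-D1, Hilpda, Ubb, Nfkbia and Nr4a1 were among the first 7 by merged exons too.

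Products of the most abundant genes were short. The longest coding sequence in GENCODE M21 had a median of 231.5 codons over the top 100 genes, 446 over the 10296 matched genes at a mean of 1 FPKM or more and 420 over the 19284 matched genes in all. Of the top 100, 40% had fewer than 200 codons, against 13.8% of the genes at 1 FPKM or more. Hilpda has 64 codons and Tmsb4x 50. Dividing by length raises short genes, so this description is tied to the length scale above.

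Promoters of the abundant genes were read from RefSeq (build GRCm38.p6, the build called mm10), 250 bases before to 50 after each start. Of the top 40 genes 32 were matched, with 48 promoters. The motif TATAAA, searched on both strands, was present in 13 of the 32 genes (40.6%), against 8.59% of the 7998 matched genes at a mean of 1 FPKM or more and 13.1% of all 14632 matched genes. Within the 60 bases before the start it was present in 4 of 48 promoters (8.33%), against 3.82% of all 18109 promoters. These 4 windows are shown because the match lies close before the start, and capitals mark the motif. They lie at chr17:35263034-35263093 (plus strand, H2-D1), chr11:116024505-116024564 (minus, H3f3b), chr11:106788495-106788554 (minus, Ddx5) and chr10:80930031-80930090 (plus, Gadd45b). All 4 starts lie inside the gene as GENCODE M21 draws it. The match begins 26, 27, 30 and 46 bases before the start.
H2-D1: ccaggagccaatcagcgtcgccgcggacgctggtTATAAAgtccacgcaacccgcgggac
H3f3b: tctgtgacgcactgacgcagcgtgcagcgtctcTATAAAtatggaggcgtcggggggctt
Ddx5: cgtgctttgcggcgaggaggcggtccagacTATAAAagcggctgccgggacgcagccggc
Gadd45b: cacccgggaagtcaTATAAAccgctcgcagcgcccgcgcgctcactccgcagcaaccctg

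Matches to the NF-kB consensus (both strands, whole window) were found in 8 of the 32 genes (25%), against 12.3% of the matched genes at 1 FPKM or more and 11.3% of all matched genes. Among the immediate early genes 8 of 28 matched genes (28.6%) held one. The windows of 5 of the abundant genes are shown, each with 10 bases on either side of the match in capitals, because they join class I presentation, NF-kB feedback and lipid storage. They lie at chr17:35262913-35262942 (plus strand, H2-D1), chr17:34000439-34000468 (minus, H2-K1), chr2:122147551-122147580 (plus, B2m), chr12:55492657-55492686 (minus, Nfkbia) and chr6:29272347-29272376 (plus, Hilpda). In B2m and Nfkbia the match is on the strand opposite to the gene. A match describes the letters and not a bound site.
H2-D1: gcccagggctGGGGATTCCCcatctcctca
H2-K1: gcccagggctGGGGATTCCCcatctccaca
B2m: actgaaaatgGGAAAGTCCCtttgtaacct
Nfkbia: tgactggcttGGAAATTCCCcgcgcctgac
Hilpda: gaactcctgcGGGGCCTTCCcacactgccc

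The lineage transcription factors were all detected but spanned a wide range. All 25 listed factors reached 1 FPKM in every library, with a median of 24.4 FPKM, and they held 1.87% ± 0.135 of the summed FPKM. Behind Id2 and Rora came Bhlhe40, a repressor known to promote cytokine production in T cells, at 1765, 2128, 1449 and 1843 FPKM. Lmo4, a LIM-domain cofactor, stood at 1114, 935, 1058 and 1271 FPKM. The list fell off steeply below these. Chosen after their values were seen, Pparg (90.02 FPKM), the nuclear receptor tied to lipid use in adipose lymphocytes, Bcl11b (11.6), Tcf7 (11.4) and Gfi1 (4.17), all known from ILC2 development, were far lower than Gata3. As deposited the summed list was lowest in N3, at 9636 FPKM against 11668 to 12027 in the others. As a share of the recovered reads of each library, Id2 and Lmo4 were lowest in N2. Rora and Bhlhe40 were lowest in N4, and Gata3 in N3. The low sum in N3 is thus tied to the deposited scale.

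**Figure D2:**
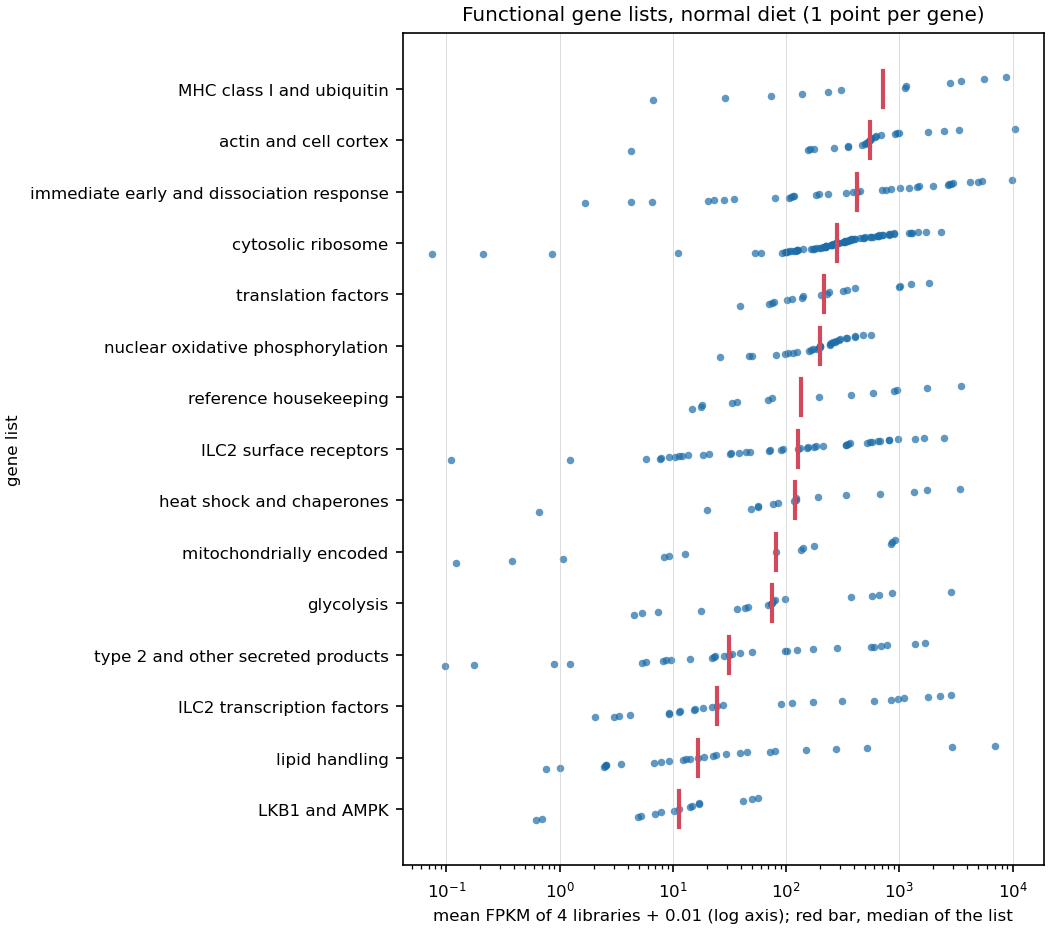
Mean FPKM of the 4 libraries plus 0.01 (log axis) for each gene of the functional lists, 1 point per gene, with the median of each list as a red bar. Class I presentation, actin and immediate early genes have the highest medians (713, 557 and 425 FPKM), and the LKB1 and AMPK genes the lowest (11.3 FPKM).

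Surface receptors of ILC2s were mostly present. Of 43 listed receptors 41 reached 1 FPKM in all libraries, and their median was 128 FPKM. After Ccr8, the highest were Cxcr6, a chemokine receptor of tissue-resident lymphocytes (1724, 1937, 1482 and 1451 FPKM), Il2rg, the common gamma chain of the receptors for interleukins 2, 7 and others (1378 ± 233), and Tnfrsf18, which encodes GITR (982 ± 179). The receptors for alarm signals were spread widely. Chosen after their values were seen, Il7r stood at 184 FPKM, Il17rb, part of the interleukin-25 receptor, at 48.1, and Crlf2, part of the receptor for thymic stromal lymphopoietin, at 32.6, all below Il1rl1. Ptgdr2, the prostaglandin D2 receptor CRTH2, was listed at 0 in N1 and N3 and had 0.170 and 0.230 FPKM in N2 and N4.

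As deposited, secreted products were led by a growth factor for myeloid cells and a neuropeptide. Csf2, which encodes GM-CSF, stood at 1565, 1743, 2011 and 1482 FPKM. Calca, which encodes calcitonin and the neuropeptide CGRP, stood at 1658, 1402, 1031 and 1462 FPKM. As deposited both were above Il5 in every library, but for Calca this depends on the length used. With merged exons as the length Csf2 ranked 11th, Il5 49th and Calca 61st. By reads with no length they ranked 71st, 126th and 132nd. Furin, a protease that cleaves precursors of secreted proteins, had 691 ± 95.6 FPKM. Of the 29 listed products 25 reached 1 FPKM in all libraries, and the median was 31.7 FPKM. Il13, named after its values were seen, had a mean of 8.63 FPKM and Il4 of 31.7, both far below Il5.

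Lipid genes combined a few very abundant transcripts with many low ones. The 27 members had a median of 16.8 FPKM, and 25 reached 1 FPKM in all libraries. After Hilpda and Dgat1 came Alox5, which starts leukotriene synthesis (424, 623, 444 and 585 FPKM), and Plin2, the coat protein of lipid droplets (281, 308, 246 and 260 FPKM). Among the genes named after their values were seen, Lipe (2.54 FPKM), hormone-sensitive lipase, and Cd36 (0.753), a fatty acid carrier, were near the lower end.

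Among energy genes, those of oxidative phosphorylation were more even between libraries than those of glycolysis. All 30 nuclear-encoded genes of oxidative phosphorylation reached 1 FPKM in all libraries, with a median of 201 FPKM and a median CV of 0.108. Atp5b, a subunit of the ATP synthase, stood at 582, 516, 561 and 600 FPKM, and Cox6a1, Cox4i1 and Cox6c, subunits of cytochrome oxidase, had means of 475, 410 and 405. The 18 glycolysis genes had a median of 74.4 FPKM and a median CV of 0.157. Behind Ldha came Aldoa (867 ± 116), Pkm (668 ± 158) and Eno1 (576 ± 147). As deposited, glycolysis genes were highest in sum in N2 (7179 FPKM) and lowest in N3 (4650 FPKM). As a share of the recovered reads of each library, Aldoa and Pkm were lowest in N1 and not in N3. Ldha and Eno1 were nearly level in N1 and N3 by that share. The 13 mitochondrially encoded genes held 0.529% ± 0.0580 of the summed FPKM, led by mt-Nd1 (924 ± 146), mt-Co1 (864 ± 64.3) and mt-Cytb (845 ± 111).

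The kinase LKB1 and the AMPK subunits, the pathway that the title of the series names, were expressed near the middle of the range. Stk11, which encodes LKB1, stood at 18.5, 16.5, 19.2 and 14.4 FPKM, with a mean of 17.1 against a median of the 10351 genes at a mean of 1 FPKM or more of 11.2 FPKM. The highest of the 15 listed genes were Cab39l, a scaffold of the LKB1 complex (56.1 ± 7.48), Nrf1, a transcription factor of mitochondrial genes (50.5 ± 11.8), and Prkab1, the AMPK beta 1 subunit (41.4 ± 4.82). The list median was 11.3 FPKM and 13 of 15 reached 1 FPKM in all libraries. The 2 that did not were Ppargc1a (0.691 FPKM), a coactivator of mitochondrial genes, and Prkaa2 (0.613), the AMPK alpha 2 subunit.

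Ribosomal protein genes varied in their share of the library. The 80 cytosolic ribosomal protein genes with no value below 0 held 6.20%, 4.47%, 5.56% and 5.79% of the summed FPKM in N1 to N4, with N2 the lowest. Their median was 282 FPKM and 77 reached 1 FPKM in all libraries. Among them Rpl13 had 1706 ± 342 FPKM, Rps19 1465 ± 131 and Rps14 1289 ± 93.5. The 18 translation factors had a median of 217 FPKM, led by Eif1 (1832 ± 107), which helps select the start codon, Eif5a (1274 ± 235), Tpt1 (1008 ± 129) and Eef1a1 (994 ± 252). Heat shock genes were steady, with a median CV of 0.0810 over 15 genes. Hspa5, the chaperone BiP, had 1764 ± 252 FPKM, Dnaja1 1351 ± 100.2 and Hsp90ab1 670 ± 49.0.

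Actin cortex genes were high throughout. All 25 members reached 1 FPKM in all libraries and their median of 557 FPKM was the second highest of the functional lists. After Tmsb4x came Pfn1, which feeds actin monomers to growing filaments (2859, 3755, 3732 and 3133 FPKM), Cfl1, and Actg1, gamma actin (1833, 1804, 1574 and 1988). Of the genes often used as references, Ppia (1748 ± 102) and Rplp0 (893 ± 70.02) had CVs of 0.0583 and 0.0784, while Actb (955 ± 199) and B2m had 0.208 and 0.216.

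**Figure D3:**
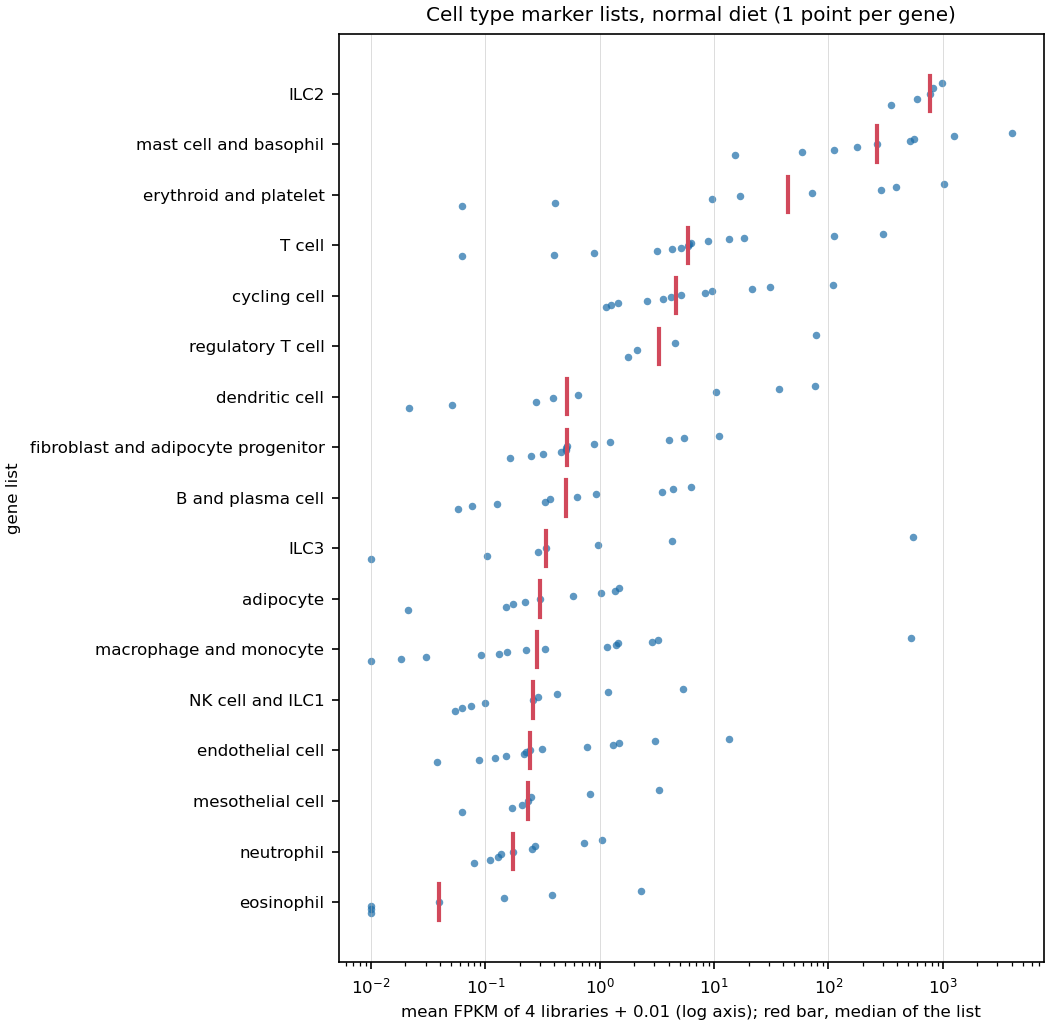
Mean FPKM of the 4 libraries plus 0.01 (log axis) for each gene of the cell type marker lists, 1 point per gene, with the median of each list as a red bar. The ILC2 list has the highest median (780 FPKM), followed by the mast cell list (268) and the erythroid list (44.6), and genes listed at 0 sit at the left edge.

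Markers of other cell types were low, apart from those of mast cells and, in N3 and N4, of red cells. The ILC2 markers summed to more than each other list in all 4 libraries, apart from the mast cell list in all of them and the erythroid list in N4. Lists of B and plasma cells, NK cells and ILC1s, neutrophils, eosinophils, adipocytes, fibroblasts, mesothelium and endothelium summed to between 1.19 and 33.7 FPKM in any library. Prg2, Epx and Ear2, granule proteins of eosinophils, were listed at 0 in all 4 libraries, where 3 reads would have given at most 0.344, 0.111 and 0.961 FPKM. That limit covers counting error only, and reads copied by PCR are not independent molecules. In bulk RNA, fewer cells of a type and less RNA per cell cannot be told apart.

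Mast cell genes were high in every library. All 9 listed genes were at 10 FPKM or more in all 4 libraries, and they summed to 4128, 6836, 8338 and 8589 FPKM. The ILC2 marker sum was 0.861, 0.527, 0.377 and 0.447 times that. Tpsb2 stood at 2287, 4258, 4844 and 4638 FPKM and Cma1, the chymase, at 659, 1023, 1485 and 1863. Tpsb2 has close paralogs among the tryptases, so its value is uncertain. The remaining high members were Hdc, which makes histamine (367, 661, 631 and 585 FPKM), Cpa3, carboxypeptidase A3 (373, 349, 659 and 691), and Mcpt4 (197, 192, 310 and 374). N1 was the lowest for Tpsb2, Cma1 and Hdc, and N2 for Cpa3 and Mcpt4. Genes that serve as receptors were lower. Kit had 177 ± 44.7 FPKM, Fcer1a 111 ± 31.9 and Ms4a2 58.2 ± 19.6, and Mcpt8, the basophil protease, had 15.1 ± 0.827. The 9 genes held 0.521%, 0.656%, 1.01% and 1.04% of the recovered reads. By the median gene of each list the order turned, with the ILC2 list at 780 and the mast cell list at 268 FPKM. The source of the mast cell transcripts was not tested.

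Haemoglobin transcripts split the libraries into a low pair and a high pair. Hba-a1 stood at 146 and 131 FPKM in N1 and N2 and at 1034 and 2755 in N3 and N4. Hbb-bs stood at 2.64 and 0.617 FPKM in N1 and N2 and at 754 and 796 in N3 and N4, and Hba-a2 at 0.947, 0.361, 411 and 749. Hbb-bt was listed at 0 in N2 and reached 150 FPKM in N4. The 4 genes held 0.00618%, 0.00551%, 0.138% and 0.205% of the recovered reads. The alpha genes are near-identical copies, as are the beta genes, so reads may be split within each pair. Alas2, which starts haem synthesis in red cell precursors, was at 0.196, 0.0553, 4.29 and 34.0 FPKM.

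Among the T cell genes described, some were steady and some were high in N4, while Themis was lowest in N4. Lat, an adaptor of antigen receptor signalling, stood at 300, 331, 257 and 300.4 FPKM and Cd3g at 84.7, 128, 121 and 115, and these 2 genes made up most of the T cell list's sum of 440, 510, 435 and 543 FPKM. The rest of the receptor complex was low. Cd3e stood at 3.62, 2.49, 2.89 and 11.6 FPKM and Cd3d at 2.10, 1.17, 2.90 and 10.95. Cd4, the coreceptor of helper T cells, stood at 2.88, 2.68, 3.58 and 15.9. Cd5 and Cd6 had the same shape, at 15.8 and 23.5 FPKM in N4 and 1.60 to 6.71 elsewhere. Foxp3, the factor that defines regulatory T cells, stood at 1.81, 1.45, 3.30 and 11.5 FPKM, Ctla4 at 7.10, 5.04, 10.1 and 23.4, and Il10 at 2.21, 1.05, 3.27 and 16.5. N4 was the highest library for each of these 8 genes and N2 the lowest. Of the 8, Ctla4 and Il10 are not on the marker lists. On the T cell list, Themis stood at 3.01, 3.44, 3.86 and 2.40 FPKM. Cd247 stood at 13.6, 20.3, 17.1 and 22.2 FPKM and Cd28 at 14.6, 11.4, 9.70 and 17.8. Tnfrsf9, the highest of the regulatory T cell list, stood at 89.0, 63.4, 77.1 and 80.6 FPKM, with N1 the highest. Cd8a and Cd8b1 had means of 0.387 and 0.877 FPKM. The ILC2 marker sum in N4 was 7.06 times its T cell sum. The part that T cells play in these values was not tested.

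**Figure D4:**
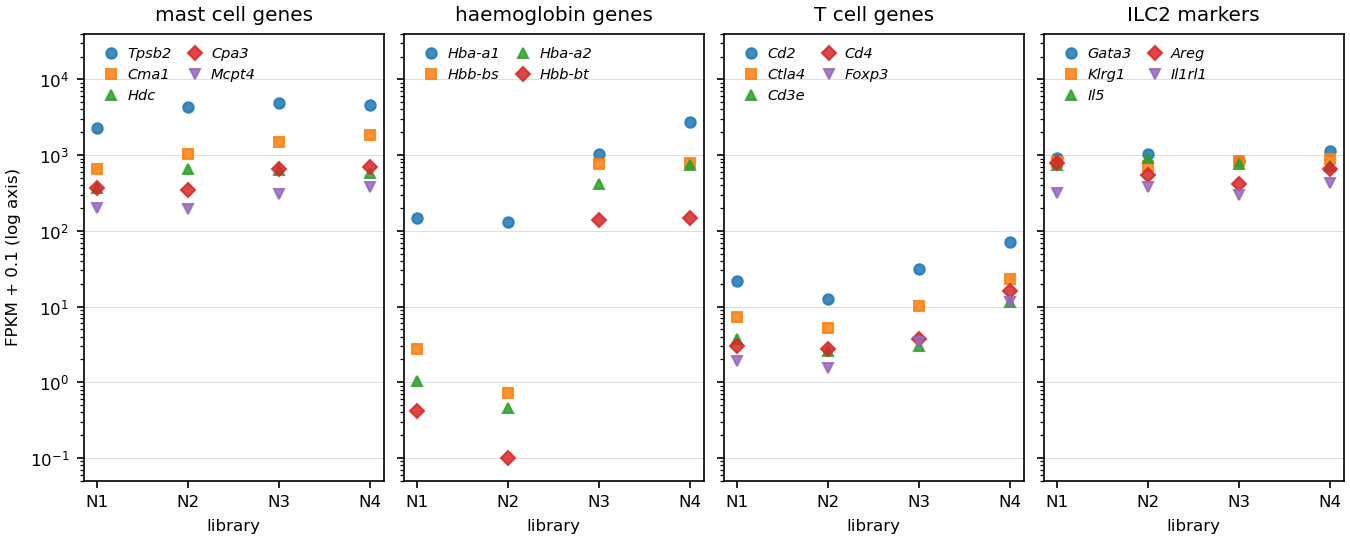
FPKM plus 0.1 (log axis) in N1 to N4 of mast cell genes, haemoglobin genes, T cell genes and ILC2 markers, 1 point per gene and library. Haemoglobin genes are high in N3 and N4, Cd2, Ctla4, Cd3e, Cd4 and Foxp3 are highest in N4, and the ILC2 markers stay between 298 and 1145 FPKM.

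In the ILC3 list and the macrophage and monocyte list a high sum came from a single gene. Ltb, which encodes lymphotoxin beta, had 544 ± 88.4 FPKM and made up nearly all of the ILC3 sum of 469 to 668 FPKM. Il17a, a cytokine of ILC3s, was listed at 0 throughout, where 3 reads would have given at most 0.248 FPKM. Ccr2, a chemokine receptor also found on ILC2s, had 524 ± 110 FPKM of the macrophage and monocyte sum of 432 to 689. The complement gene C1qb was listed at 0, where 3 reads would have given at most 0.280 FPKM, and Adgre1, which encodes F4/80, had 1.43 ± 0.355. Among dendritic cell genes Zbtb46 (76.0 ± 17.3) and Ccr7 (37.0 ± 5.89) stood out over Flt3 (0.631 ± 0.548). Pecam1, an adhesion molecule of endothelium, had 13.5 ± 2.01 FPKM and Fabp4, a fatty acid carrier of endothelium and adipocytes, 1.45 ± 0.453. The cycling cell list was led by Pcna (110 ± 15.7), while Mki67 had 1.26 ± 0.399.

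The libraries resembled each other closely across genes but differed by more than read counting allows. Pearson's correlation of log2(FPKM + 1) across genes ran from 0.976 to 0.981 over the 6 pairs, and Spearman's from 0.973 to 0.976. Genes are not independent replicates, and these values are descriptions. Of the genes at a mean of 1 FPKM or more, 83.2% to 88.9% lay within 1.5-fold in a pair. The chi-square per gene between recovered reads was 15.8 to 23.4 where counting alone gives about 1, so no pair was the same library deposited again.

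**Figure D5:**
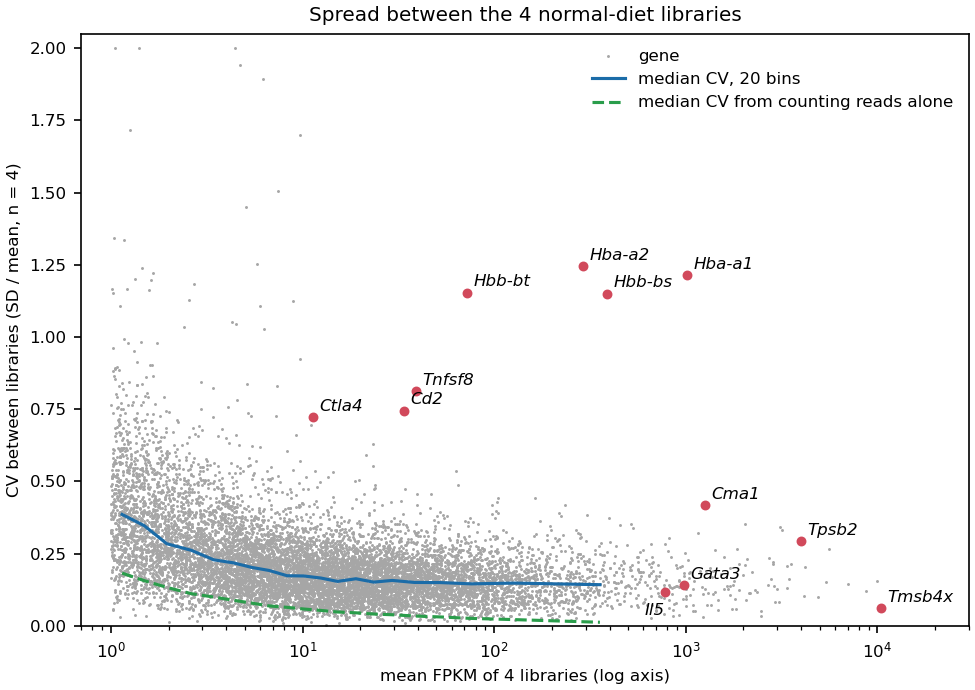
CV between the 4 libraries (SD over mean) of each gene at a mean of 1 FPKM or more against its mean FPKM (log axis), with the median in bins and the median CV that counting reads alone would give. The median levels off near 0.14 while counting falls toward 0, and the haemoglobin genes stand above 1.

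Spread between libraries shrank little with abundance above 10 FPKM. The median CV was 0.239 over the 4873 genes at 1 to 10 FPKM, 0.156 over 4502 genes at 10 to 100, 0.145 over 889 genes at 100 to 1000 and 0.138 over the 87 genes above. Counting reads alone would give a median of 0.0997, 0.0405, 0.0173 and 0.00641 in these bins. With the recycled factor divided out the medians were 0.219, 0.133, 0.124 and 0.111, still above counting.

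Few expressed genes were strongly variable, and haemoglobin genes led them. A CV of 0.4 or more was found for 54 of the 5478 genes at a mean of 10 FPKM or more. N1 to N4 were the highest for 9, 8, 19 and 18 of these, and the lowest for 15, 12, 6 and 21. Over all 5478 genes they were the highest for 16.2%, 50.8%, 13.2% and 19.8%, and the lowest for 31.8%, 10.5%, 34.8% and 22.9%. The 10 with the highest CV, without predicted genes, were Hba-a2 (1.25), Hba-a1 (1.21), Hbb-bt (1.15), Hbb-bs (1.15), Tnfsf8 (0.814), Cd2 (0.745), Ctla4 (0.723), Nap1l5 (0.695), Bpgm (0.631) and Bag1 (0.592). Tnfsf8, the CD30 ligand, stood at 16.1, 85.5, 33.4 and 21.3 FPKM, with N2 the highest. Cd2, an adhesion receptor of T and NK cells, stood at 21.8, 12.5, 31.3 and 70.1. Nap1l5, an imprinted gene, was at 4.79, 5.59, 21.4 and 12.6 FPKM, Bpgm, a red cell enzyme that makes 2,3-bisphosphoglycerate, at 45.4 in N4 and 14.5 to 17.7 elsewhere, and Bag1, a cochaperone, at 24.3, 16.4, 37.2 and 7.47.

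The steadiest genes as deposited were of middling abundance. The lowest CV was that of Sdccag8, a centrosome protein, with 13.2, 13.3, 13.2 and 13.3 FPKM (CV 0.00353). That is below the 0.0555 that counting its 291 to 378 reads would give, and with the recycled factor divided out its CV was 0.0399. The next were Zfp654 (0.0106), Safb (0.0112), which binds RNA and nuclear matrix DNA, Utp18 (0.0134), needed for ribosomal RNA processing, and Tm2d3 (0.0160). Ndufs3, a core subunit of complex I, stood at 66.6, 67.7, 67.4 and 65.1 FPKM. Mrps15 (0.0185), a mitochondrial ribosomal protein, Kars (0.0187), the lysyl-tRNA synthetase, Psme2 (0.0189), a proteasome activator subunit, and Idnk (0.0193) completed the 10. These genes were picked from 5478 for their low CV, and it rose for all 10 with the recycled factor divided out. It was then 0.106 for Utp18 and Ndufs3, 0.101 for Psme2 and 0.0985 for Kars, and 0.0271 for Safb to 0.0473 for Mrps15 over the other 6.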

How the data were processed

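Per the labels' protocols, Trizol RNA of sorted ILC2s was turned into full-length cDNA (SMART-Seq HT) and made into TruePrep libraries. This preparation does not mark strand, so overlapping and antisense genes cannot be told apart. The deposited values are FPKM, per the file headers. HISAT2, Cufflinks and mm10 are named in the submitters' processing notes, and their versions and the annotation were not given in the sources used here. In the deposited table some genes have values of another scale, below 0 (1155 protein-coding genes here, 0.836% to 0.951% of protein-coding reads), and were left out. The value of 1 read also takes 10 recycled sizes.

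Whole reads were recovered for 24107 genes, with the smallest length of at least 20 bases that gave whole reads in all 8 libraries (relative tolerance 1e-06). The high-fat libraries were used only for this and to count genes below 0 in them. For 3249 genes with all reads even and an odd length, both were divided by 2, taking the length not to be a whole number. The recovery was tested on simulated data.

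With 1 group nothing was tested. Values were computed with Python 3.11.15, pandas 2.3.3 and scipy 1.17.1. The members and lists were chosen with earlier results of these data known. Named were the 40 highest means, Gata3, Il1rl1, Klrg1, Il5 and Areg, the 4 highest of each list, markers at 0, and the 10 highest and 10 lowest CVs at a mean of 10 FPKM or more without predicted genes. A few genes that the rule takes are not reported here. Other genes, such as Alas2, Il10, Mki67, Cd4, Cd5 and the lower mast cell genes, were chosen after their values were seen. Alternatives were other thresholds, pseudocounts, equal library sums, the recycled factor divided out, medians, quantile normalization and each library left out. Merged-exon lengths, reads with no length and a CV without haemoglobin genes were added after seeing the data.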

Additional observations from a re-analysis of the deposited data

Results flagged for a closer look

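In 13 values 1 library stood far from the other 3, with a gap to the nearest of them above Dixon's 95% critical value for 4 samples. The values were taken as deposited. Flags were not sought with the recycled factor divided out, and they may not hold there. Among 146 genes and 32 lists looked at, chance flags about 1 in 20 groups. That rate does not hold for genes named for the highest or lowest CV over these same libraries, such as Bpgm. N2 was high for Ubb (7842 FPKM), Ly6e (4389), a GPI-anchored surface protein, Dusp1 (3703), Cd82 (2597), a tetraspanin, and the glycolytic enzyme Eno1 (794). N2 also had the highest summed FPKM of the 4 libraries. By recovered reads Ly6e (45888 in N2 and 47493 in N4) and Eno1 (12973 and 13290) were highest in N4. As a share of the library totals they were highest in N4 too, while Ubb, Dusp1 and Cd82 were highest in N2. Whether any of these passes the critical value by reads was not tested. With the recycled factor divided out the CV between libraries fell from 0.266 to 0.141 for Ubb, from 0.206 to 0.0924 for Ly6e, from 0.237 to 0.178 for Dusp1, from 0.267 to 0.149 for Cd82 and from 0.255 to 0.156 for Eno1. Jchain, which joins secreted antibodies in plasma cells, was at 23.9 FPKM in N2 and at 0.197 to 0.399 elsewhere, and with it the summed B and plasma cell list stood at 33.7 FPKM in N2. N1 was high for Rgs2 (5442 FPKM), Zfp36 (3241) and Lrrn4 (4.56), a mesothelial marker, and low for Serinc3 (1808), a membrane protein. Recovered reads of Serinc3 were 36784, 49022, 42929 and 53318 in N1 to N4, of library totals of 10582025, 12858056, 11632186 and 13109026. As a share of these totals N1 was still the lowest for Serinc3, but close to N3. Recovered reads of Rgs2, Zfp36 and Lrrn4 were highest in N1, which had the smallest total. Whether these genes pass the same critical value by reads was not tested. N4 was high for Bpgm (45.4 FPKM), beside its haemoglobin genes. The summed ILC2 transcription factors were low in N3 as deposited (9636 FPKM). As shares of recovered reads, Id2 and Rora were not lowest in N3.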

How the results depend on the processing

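No paired analysis was possible because no result comes from a test between groups. With every gene type in the denominator the top 10 held 10.3% and the top 100 held 34.9% of the summed FPKM, and without mitochondrially encoded genes the top 100 held 35.95%. Leaving out 1 library gave 35.7% to 35.9% for the top 100, highest without N4. By reads with no length 26 of the 40 most abundant genes were shared. The ILC2 marker list exceeded the mast cell list 3.03 times by the median gene, where by the sum it was below it (0.553). The median CV of 0.186 became 0.154 at 10 FPKM or more, 0.301 with no filter, 0.161 with the recycled factor divided out and 0.159 to 0.181 with 1 library left out, lowest without N2. The lowest Pearson correlation of 0.976 became 0.964 at a pseudocount of 0.1, 0.968 at 10 FPKM or more and 0.987 with no filter. The mean of 110 of the 167 named genes and the sum of 25 of 32 lists moved by more than 1 SD with merged-exon lengths, and 0 of either moved on equal library sums or with a library left out. Low reads limit genes under 10 FPKM, where counting alone gives a median CV of 0.0997.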
